A study of Mus musculus with 9 samples.

Results

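The RNA levels of 10 immediate early genes were followed through embryonic mouse cortex with and without the ISWI chromatin remodelling ATPases. The genes were chosen by name: the AP-1 transcription factor genes Fos, Fosb, Jun, Junb and Atf3, the zinc finger factor gene Egr1, the early response genes Ier2 and Ier3, and Dusp1 and Zfp36, which encode feedback inhibitors. They are 10 of 35498 annotated genes with a row, and 9 of them were among the 15773 genes with enough reads for a test. Fosb was below that filter and is described without a test. The choice of genes was made with earlier results of these data known.

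RNA came from whole cortical tissue of C57Bl/6 embryos at E13.5, with 3 libraries in each of 3 groups. The wild type (WT) was Smarca1 +/+ and Cre -/-. The Smarca1 KO was Smarca1 -/- and Cre -/-. The double knockout (DKO) was Smarca1 -/- and Cre +/-, and the design text names it as lacking Smarca5 and Smarca1. DKO and Smarca1 KO thus share the Smarca1 genotype and differ in Cre. No label names the promoter driving Cre, the deleted exons or the Smarca5 alleles of the Cre-negative groups, so a Smarca5 difference and a Cre difference cannot be told apart. Nor do the labels say whether the replicates were separate embryos, so the p-values measure only the spread between these libraries, which may be technical.

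Immediate early genes are switched on within minutes of a stimulus, without new protein synthesis, through pre-existing factors such as SRF, its TCF partners and CREB acting downstream of MAP kinase and calcium signals. Their messages are usually short-lived. Fos and Jun proteins pair as AP-1, whereas Dusp1 removes phosphate from MAP kinases and Zfp36 promotes the decay of messages with AU-rich elements. In the brain these genes are best known as markers of neuronal activity, and they also respond to growth factors, to stress and to tissue handling.

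The promoters of 5 members are shown because these genes had all 3 DKO libraries on one side of all 6 other libraries in CPM. Fos, Fosb, Junb and Ier3 lay above them and Jun below. Of these genes, only Ier3 and Jun differed between DKO and WT at an adjusted p under 0.05 in edgeR's test. Fos and Junb did not, and Fosb was not tested. Each run holds 250 bases before and 50 bases after the RefSeq transcript start, read 5′ to 3′ on the gene's strand (RefSeq, GRCm38.p6). The positions are chr12:85473640-85473939 on the plus strand for Fos, chr7:19309996-19310295 on the minus strand for Fosb, chr8:84978699-84978998 on the minus strand for Junb, chr17:35821463-35821762 on the plus strand for Ier3 and chr4:95052173-95052472 on the minus strand for Jun. Capitals mark letters that match one of the searched motifs.
Fos: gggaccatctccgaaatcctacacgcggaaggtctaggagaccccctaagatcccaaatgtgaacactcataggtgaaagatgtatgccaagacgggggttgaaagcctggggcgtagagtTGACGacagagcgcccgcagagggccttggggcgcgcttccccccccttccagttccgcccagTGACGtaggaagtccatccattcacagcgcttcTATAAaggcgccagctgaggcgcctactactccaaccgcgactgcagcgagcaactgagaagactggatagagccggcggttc
Fosb: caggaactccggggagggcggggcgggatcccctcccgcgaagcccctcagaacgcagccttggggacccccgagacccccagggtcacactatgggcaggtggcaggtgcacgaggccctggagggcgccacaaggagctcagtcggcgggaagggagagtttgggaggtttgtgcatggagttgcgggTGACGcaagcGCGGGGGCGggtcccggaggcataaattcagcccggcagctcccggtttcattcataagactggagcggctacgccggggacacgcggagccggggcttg
Junb: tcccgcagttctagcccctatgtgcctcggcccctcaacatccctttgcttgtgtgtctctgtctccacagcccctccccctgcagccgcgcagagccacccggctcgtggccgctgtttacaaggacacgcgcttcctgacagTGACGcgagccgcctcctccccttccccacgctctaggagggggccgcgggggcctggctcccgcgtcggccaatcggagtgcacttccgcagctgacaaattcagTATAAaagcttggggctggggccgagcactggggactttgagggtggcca
Ier3: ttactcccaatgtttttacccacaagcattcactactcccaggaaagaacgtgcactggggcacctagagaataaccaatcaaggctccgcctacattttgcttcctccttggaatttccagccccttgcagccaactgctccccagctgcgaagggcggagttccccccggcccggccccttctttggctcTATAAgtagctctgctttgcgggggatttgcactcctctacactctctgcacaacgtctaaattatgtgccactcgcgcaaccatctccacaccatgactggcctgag
Jun: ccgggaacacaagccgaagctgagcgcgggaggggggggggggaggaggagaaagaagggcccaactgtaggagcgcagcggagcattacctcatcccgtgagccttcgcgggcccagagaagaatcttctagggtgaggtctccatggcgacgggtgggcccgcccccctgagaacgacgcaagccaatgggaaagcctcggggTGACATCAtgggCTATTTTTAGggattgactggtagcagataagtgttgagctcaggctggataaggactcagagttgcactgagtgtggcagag

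Matches were sought on both strands in the RefSeq promoters of 8 members. The promoters of Egr1 and Ier2 were not searched. The motifs were TGACG, the core of a cyclic AMP response element (CRE), TGACNTCA, a CRE-like site, TGANTCA, the AP-1 site, TATAA, the TATA box, GCGNGGGCG, an EGR site, and the CArG and MEF2 boxes by name. Among 32851 promoters of the same length, 20.8% held the CRE core, 8.83% the CRE-like site, 7.81% the AP-1 site, 24.9% the TATA box, 5.55% the EGR site, 1.63% a CArG box and 3.19% a MEF2 box. A CRE-like site may contain the CRE core.

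Among the 4 promoters of genes that were higher in DKO, Fos held the CRE core at -129 to -125 and -66 to -62 and a TATA box at -33 to -29, counting the first transcribed base as +1. Fosb held the CRE core at -60 to -56 and an EGR site at -50 to -42. Junb held the CRE core at -106 to -102, and its TATA box match began at the annotated start. Ier3 had only a TATA box match, at -58 to -54. For Junb and Ier3 the GENCODE gene start differs from the RefSeq start used here. It is at 84978718 for Junb, downstream of the RefSeq start, and at 35821684 for Ier3, upstream of it. Counted from these GENCODE starts, both TATA box matches would lie before the start, near the place of the Fos match. Jun held a CRE-like site at -45 to -38 and a MEF2 box at -33 to -24. Of the other members, Atf3 held the CRE core at -7 to -3 and a MEF2 box at -22 to -13. Dusp1 held a CRE-like site at -143 to -136 and an additional CRE core at -191 to -187. Zfp36 held a CArG box at -58 to -49 and an EGR site at -105 to -97. None of the 8 windows held the AP-1 letters. No motif was common to the windows of all 4 genes that were higher in CPM in every DKO library. A match here is a description of letters and not of binding.

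**Figure D1:**
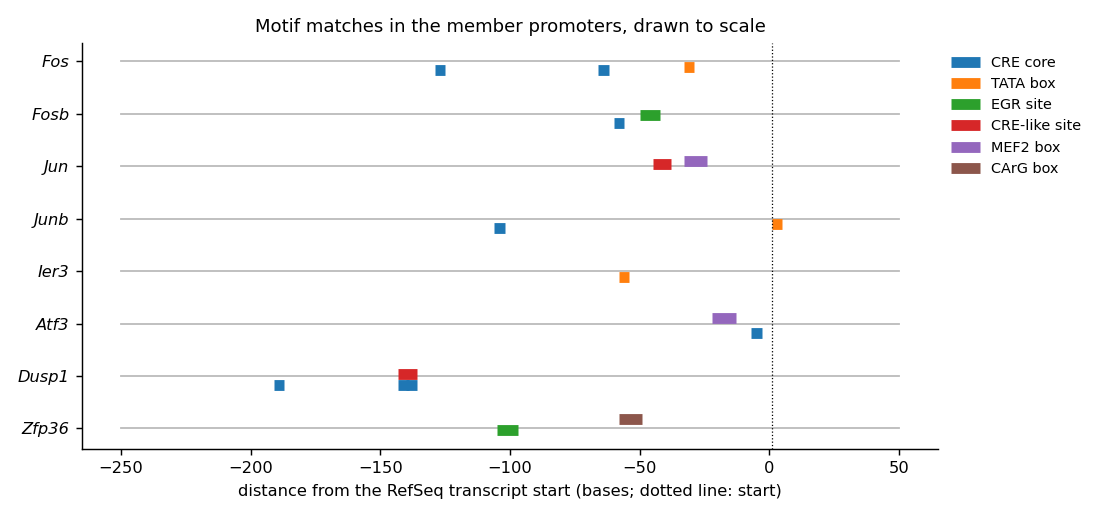
Motif matches in the 8 member promoters searched. The x axis is the distance in bases from the RefSeq transcript start (dotted line), each grey line is 1 promoter and each coloured bar is 1 match drawn to scale. Most matches lie within the last 150 bases before the start, and the 8 promoters carry different combinations.

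The sum of counts over genes was 27466046 to 46007527 per library. Levels are given in CPM, counts per unit of library size, scaled with TMM to correct for library composition. As a check of the labels, Smarca5 was at 262.0 to 270.7 CPM in WT, 212.2 to 245.8 in Smarca1 KO and 77.2 to 84.4 in DKO. Smarca1 was at 35.3 to 43.8 CPM in Smarca1 KO and 36.4 to 37.8 in WT, so its summed RNA does not check the Smarca1 label. Markers of radial glia, projection neurons and the other cortical types were detected in every group, and no marker searched was at 0 in all libraries. The summed level of 10 meningeal markers was highest in Smarca1 KO replicate 1 (615.9 CPM) and DKO replicate 1 (671.3), against 436.9 to 529.3 in WT and down to 255.4 in the other DKO libraries, so results are also given without these 2 libraries where they change. In whole tissue, fewer cells of a type and less RNA per cell cannot be told apart.

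Per transcript length, in TPM, the members spanned a wide range in WT. Jun was the highest at 76.4 ± 3.1 (SD, n = 3), followed by Ier2 at 37.9 ± 0.422 and Dusp1 at 35.7 ± 0.765. Junb followed at 4.73 ± 0.502, Ier3 at 2.81 ± 0.0525, Egr1 at 2.37 ± 0.418 and Zfp36 at 2.25 ± 0.309. Atf3 was at 1.23 ± 0.602 TPM, Fos at 0.737 ± 0.255 and Fosb at 0.0675 ± 0.0626. Egr1 and Zfp36 did not differ beyond their spread, nor did Atf3 and Fos. Jun, Ier2 and Dusp1 were therefore the abundant members in this tissue, and Fos and Fosb were near the limit of detection.

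In CPM, the DKO libraries were above every library of the other groups for the low members Fos, Junb, Ier3 and Fosb. They were below every other library for the abundant member Jun. For Fos the groups overlapped in TPM, and Fosb had few reads. Of the 9 members tested, 3 had this order upward, against 6.15% of all genes, and 1 downward, against 6.86%. The members were chosen with earlier results of these data known, so these shares are not an independent comparison. Of the 9 members tested, 3 were called between DKO and WT, against 12% of all genes: Ier3 rose, and Jun and Ier2 fell. None was called between DKO and Smarca1 KO or between Smarca1 KO and WT, against 4.39% and 0.336% of all genes. A call is an adjusted p under 0.05 in edgeR's quasi-likelihood test, fitted over all 9 libraries and adjusted by Benjamini-Hochberg over the 15773 genes.

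**Figure D2:**
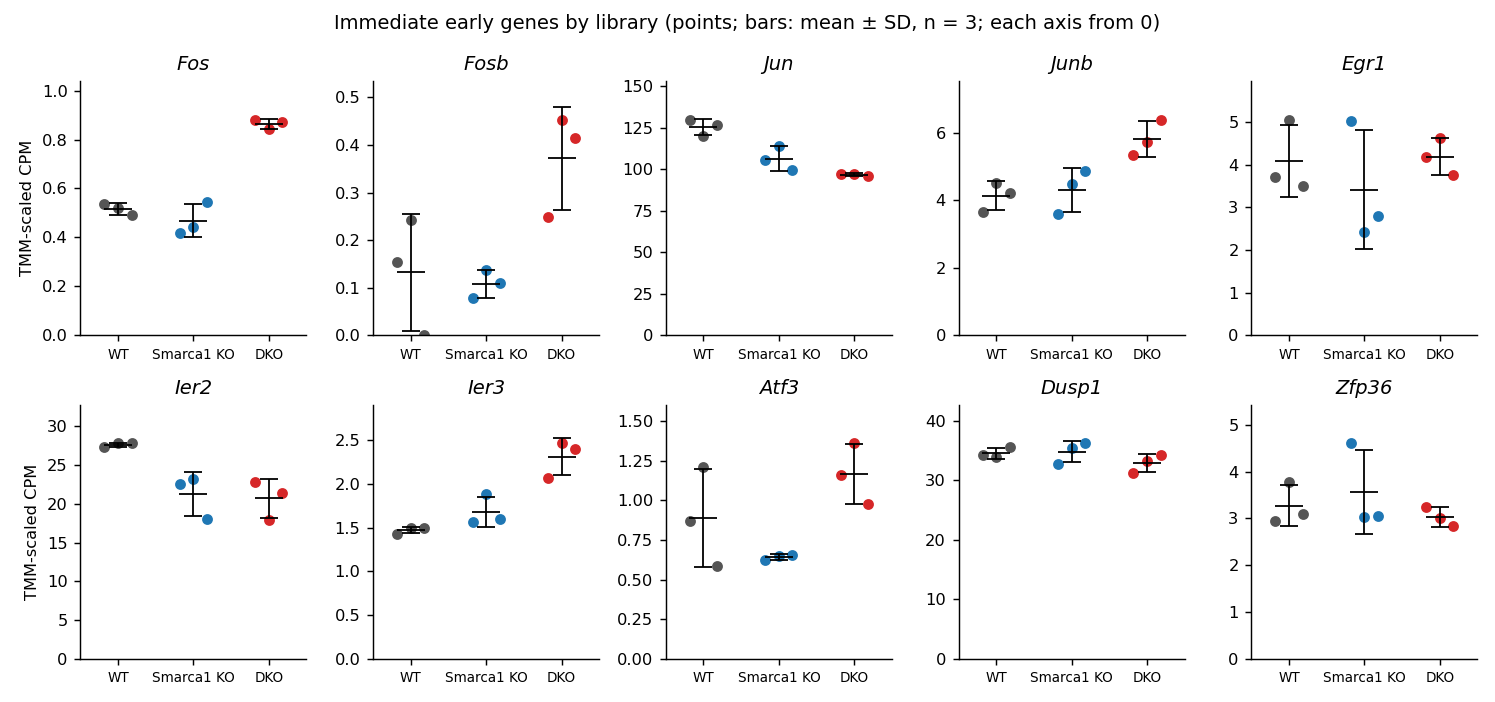
Level of each of the 10 immediate early genes in CPM (y axes, each from 0) in the 3 groups (x axis). Points are libraries and bars are the mean ± SD of 3 libraries. For Fos, Fosb, Junb and Ier3 all DKO points lie above the other 6, and for Jun all lie below.

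Fos, the AP-1 subunit that needs a Jun partner to bind DNA (chr12:85473890-85477273, plus strand, GRCm38), was at 0.538, 0.520 and 0.490 CPM in WT, 0.416, 0.444 and 0.546 in Smarca1 KO, and 0.881, 0.842 and 0.871 in DKO. The 3 DKO values lay above all others, while WT and Smarca1 KO overlapped. The DKO mean was 1.68 times the WT mean and 1.85 times the Smarca1 KO mean. The log2 fold change was 0.74 ± 0.23 (SE) against WT and 0.89 ± 0.23 against Smarca1 KO. Neither passed edgeR's test (adjusted p = 0.0612 and 0.0635). These levels rest on 13 to 21 reads a library in WT and Smarca1 KO and 26 to 40 in DKO. The share of Fos reads given to the coding transcript Fos-201 was 76.0% in WT, 77.5% in Smarca1 KO and 92.8% in DKO, the rest going to shorter non-coding transcripts. With offsets for effective transcript length, the log2 fold change was 0.37 against WT and 0.59 against Smarca1 KO (edgeR adjusted p = 0.563 and 0.501). With coding transcripts only it was 0.99 and 1.14, and neither passed (edgeR adjusted p = 0.0645 and 0.0795). On the TPM scale the groups overlapped, at 0.459 to 0.958 in WT and 0.820 to 1.12 in DKO.

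Fosb, a close relative of Fos (chr7:19302696-19310051, minus strand), had 6, 7 and 0 reads in WT, 3, 4 and 3 in Smarca1 KO, and 9, 14 and 19 in DKO. In CPM these were 0.154, 0.243 and 0 in WT, 0.078, 0.136 and 0.109 in Smarca1 KO, and 0.248, 0.453 and 0.414 in DKO. All 3 DKO values were above the other 6, the lowest of them by little. A count of 0 in the third WT library allows up to 3 reads, or 0.098 CPM, a limit that covers counting error only. No test was made at this depth.

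Junb, a Jun relative that is itself induced early (chr8:84974484-84978718, minus strand), was at 3.66, 4.51 and 4.22 CPM in WT, 3.59, 4.47 and 4.85 in Smarca1 KO, and 5.34, 5.73 and 6.38 in DKO. The DKO libraries were again the 3 highest, and the other groups overlapped fully. The DKO mean was 1.41 times the WT mean, a log2 fold change of 0.50 ± 0.15 that missed the threshold (edgeR adjusted p = 0.0579). Without the 2 libraries high in meningeal markers it was 0.56 (edgeR adjusted p = 0.0336), and DESeq2 called it on all 9 libraries (adjusted p = 0.0272). Against Smarca1 KO the log2 fold change was 0.44 ± 0.15 (edgeR adjusted p = 0.147). The gene overlaps Prdx2 on the opposite strand, and 6.51% of its stretches of 31 bases match that strand of another gene. Whether counting used strand is not known here. Prdx2 had a log2 fold change of -0.05 between DKO and WT (edgeR adjusted p = 0.525).

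Jun, the partner that binds DNA as a homodimer or with Fos (chr4:95049034-95052222, minus strand), was at 129.7, 119.8 and 126.4 CPM in WT, 105.2, 114.1 and 99.2 in Smarca1 KO, and 97.1, 97.0 and 95.6 in DKO. The groups were ordered with no overlap between any pair, and the DKO libraries were nearly equal to each other. Jun fell in DKO against WT by 0.38 ± 0.05 on the log2 scale (edgeR adjusted p = 0.00436), from a mean of 125.3 ± 5.06 CPM (SD, n = 3) to 96.5 ± 0.842, or 0.770 times the WT mean. The call was kept without any one library (adjusted p from 0.00148 to 0.0252). Smarca1 KO against WT gave -0.24 ± 0.05 (edgeR adjusted p = 0.0992) and DKO against Smarca1 KO gave -0.14 ± 0.05 (edgeR adjusted p = 0.210). DESeq2 called Smarca1 KO against WT (adjusted p = 0.00571), and edgeR did so without Smarca1 KO replicate 2 (log2 fold change -0.30, adjusted p = 0.046). Jun has 1 annotated transcript, so transcript assignment within the gene does not enter its level.

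Atf3, a stress-induced factor related to AP-1 (chr1:191170296-191218039, minus strand), was at 0.871, 1.21 and 0.588 CPM in WT, 0.624, 0.648 and 0.656 in Smarca1 KO, and 1.16, 1.36 and 0.980 in DKO. The DKO libraries lay above those of Smarca1 KO and overlapped WT, whose own libraries were spread widely. The DKO mean was 1.81 times the Smarca1 KO mean, with a log2 fold change of 0.85 ± 0.29 (edgeR adjusted p = 0.144). Against WT it was 0.38 ± 0.28 (edgeR adjusted p = 0.377). The counts were 18 to 45 reads a library. Salmon gave all 19 Atf3 reads of Smarca1 KO replicate 2 to a coding transcript of 1906 bases that had no reads in any other library.

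Egr1, a zinc finger factor with GC-rich sites (chr18:34859823-34864984, plus strand), was at 3.71, 5.06 and 3.50 CPM in WT, 5.02, 2.42 and 2.81 in Smarca1 KO, and 4.19, 4.63 and 3.77 in DKO. All groups overlapped, and the highest Smarca1 KO library was level with the highest WT library. The log2 fold change of DKO was 0.04 ± 0.26 against WT and 0.28 ± 0.27 against Smarca1 KO, neither past the test (edgeR adjusted p = 0.945 and 0.646). Smarca1 KO replicate 1, which set the high value of its group, also had the highest summed level of endothelial and mural markers (388.4 CPM, against 246.4 to 335.7 elsewhere). The part of those cells in the Egr1 level was not tested. Without the 2 libraries high in meningeal markers, DKO against Smarca1 KO gave 0.68 (edgeR adjusted p = 0.170).

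Ier2, an early response gene for a nuclear protein (chr8:84661331-84662852, minus strand), was at 27.3, 27.8 and 27.8 CPM in WT, 22.6, 23.2 and 18 in Smarca1 KO, and 22.8, 17.9 and 21.4 in DKO. Both mutant groups lay below WT without overlap and overlapped each other. Ier2 fell in DKO against WT by 0.42 ± 0.11 on the log2 scale (edgeR adjusted p = 0.0376), from a mean of 27.7 ± 0.327 CPM to 20.7 ± 2.53, or 0.748 times the WT mean. Smarca1 KO against WT gave -0.38 ± 0.11 (edgeR adjusted p = 0.147; DESeq2 adjusted p = 0.0365). DKO against Smarca1 KO gave -0.04 ± 0.11 (edgeR adjusted p = 0.902). The DKO against WT call was lost without DKO replicate 2 or 3 or any one WT library (edgeR adjusted p from 0.0921 to 0.110), and with length offsets (0.0544).

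Ier3, a small protein that acts on cell survival and ERK signalling (chr17:35821684-35822923, plus strand), was at 1.43, 1.49 and 1.5 CPM in WT, 1.56, 1.88 and 1.6 in Smarca1 KO, and 2.07, 2.46 and 2.40 in DKO. The 3 groups were ordered without overlap, in the opposite direction to Jun. Ier3 rose in DKO against WT by 0.64 ± 0.16 on the log2 scale (edgeR adjusted p = 0.0356), from a mean of 1.48 ± 0.0369 CPM to 2.31 ± 0.212, or 1.56 times the WT mean. DKO against Smarca1 KO gave 0.46 ± 0.16 (edgeR adjusted p = 0.169) and Smarca1 KO against WT gave 0.18 ± 0.17 (edgeR adjusted p = 0.582). The rise was called on 43 to 56 reads a library in WT and 75 to 110 in DKO. It was lost without DKO replicate 2 or 3 or any one WT library (edgeR adjusted p from 0.110 to 0.126), with length offsets (0.0669) and with no filter on low counts (0.0631).

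The feedback inhibitors gave no call. Dusp1, a MAP kinase phosphatase (chr17:26505590-26562128, minus strand), was at 34.2, 33.9 and 35.6 CPM in WT, 32.8, 35.5 and 36.2 in Smarca1 KO, and 31.3, 33.3 and 34.3 in DKO. Its groups overlapped, and its log2 fold change in DKO against WT was -0.07 ± 0.06 (edgeR adjusted p = 0.453). Retained-intron transcripts took 9.05% of its reads in WT, 7.77% in Smarca1 KO and 8.14% in DKO. Zfp36, the protein that binds AU-rich elements (chr7:28376784-28380253, minus strand), was at 2.94, 3.78 and 3.10 CPM in WT, 4.6, 3.04 and 3.06 in Smarca1 KO, and 3.25, 3.01 and 2.83 in DKO. Its highest value was also that of Smarca1 KO replicate 1, and its log2 fold change in DKO against WT was -0.11 ± 0.19 (edgeR adjusted p = 0.739). Of its stretches of 31 bases, 3.2% also occur in another gene.

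Between DKO and WT, 3 of 9 members were called, 1 up and 2 down, against 12% of all genes tested (5.61% up and 6.35% down). Without the 2 libraries high in meningeal markers, 4 were called, with Junb added. That fit also called more of all genes, 2797 against 1887 in the fit of all 9 libraries. Between DKO and Smarca1 KO edgeR called 0 members, against 4.39% of all genes. At an unadjusted p under 0.05 there were 5, 4 of them up, against 18.4% of all genes, and DESeq2 called 0. Between Smarca1 KO and WT edgeR called 0 members, against 0.336% of all genes, with 2 at an unadjusted p under 0.05, both lower in Smarca1 KO, against 18.9% of all genes. DESeq2 called these 2, Jun and Ier2, among 727 genes. Of the 9 members tested, 3 had every DKO library above the other 6, against 6.15% of all genes, and 1 had every DKO library below, against 6.86%. Because the members were chosen with earlier results of these data known, these counts are a description only. The median log2 fold change of the 9 was 0.28 in DKO against Smarca1 KO, 0.04 in DKO against WT and -0.15 in Smarca1 KO against WT. Over all genes the medians were 0.00, 0.01 and 0.01. The DKO comparisons share the DKO libraries and those with WT share the WT libraries, so these values are not independent of each other.

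**Figure D3:**
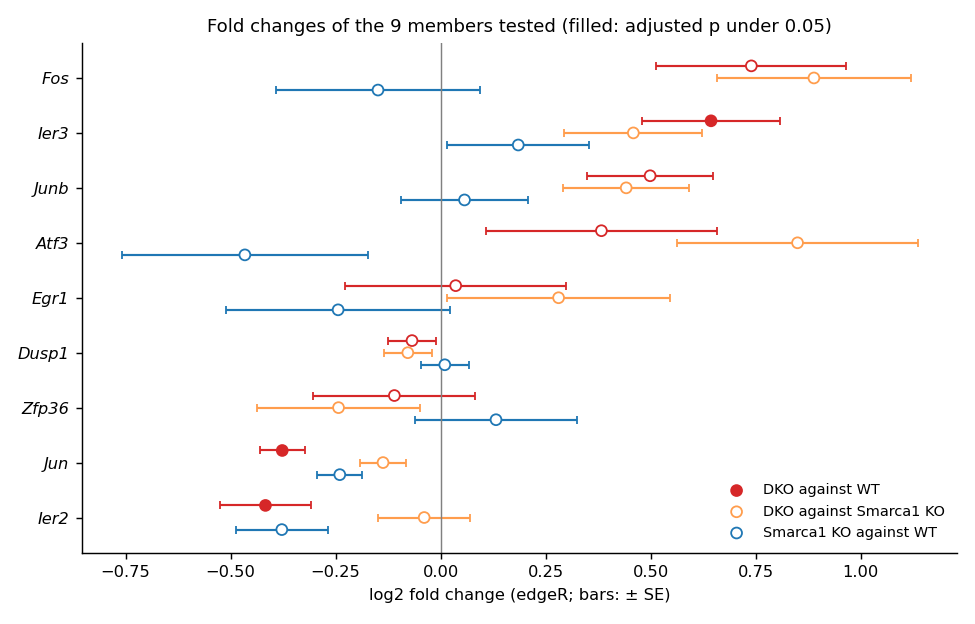
Log2 fold change of the 9 members tested (y axis: gene) in the 3 comparisons, with bars of 1 standard error and filled points for an adjusted p under 0.05. The filled points are Ier3 above 0 and Jun and Ier2 below 0, all in DKO against WT.

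**Figure D4:**
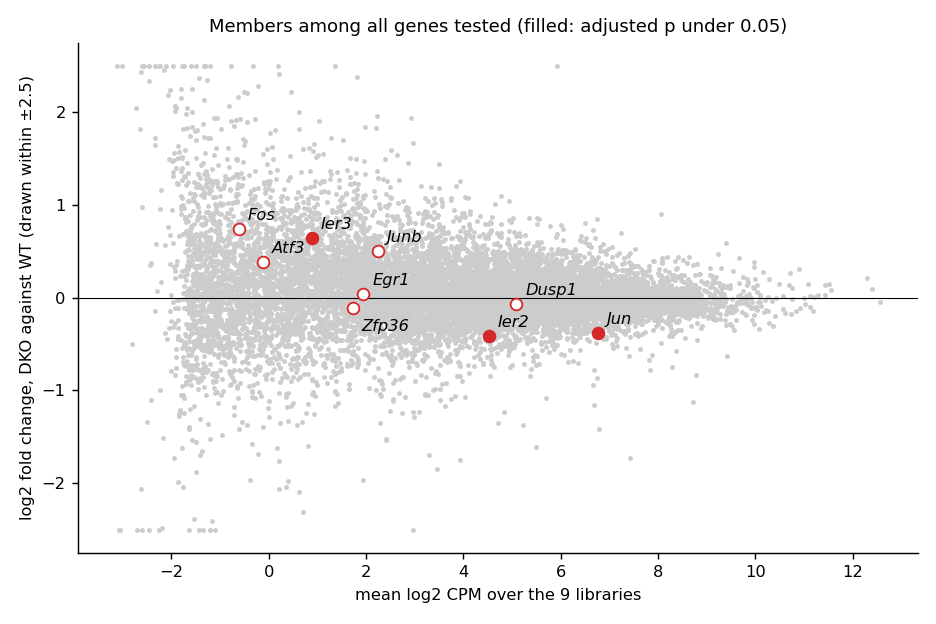
Log2 fold change in DKO against WT (y axis) against mean log2 CPM over the 9 libraries (x axis) for all 15773 genes tested (grey), with the 9 members marked and filled where the adjusted p was under 0.05. Ier3 lies above 0, and Jun and Ier2 lie below 0 at higher levels.

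The summed level of 4 Y-linked genes was also lower in DKO, at 238.5 to 247.0 CPM. It was 257.9 to 265.8 in WT and 253.2 to 267.5 in Smarca1 KO, which overlapped. Of these 4 genes, 1 was called down in DKO against WT, beside 6.35% of all genes. With their mean log2 level as a covariate, no member was called between DKO and WT, and Jun's log2 fold change was -0.33 (edgeR adjusted p = 0.56). Zfp36 then changed sign, to 0.46 (edgeR adjusted p = 0.795). Group membership accounted for 0.772 of the variance of that covariate (R2), so it and genotype can barely be told apart in these libraries. The summed level of 10 microglial markers was 48.3 to 51.2 CPM in WT, 46.1 to 65.9 in Smarca1 KO and 59.6 to 86.8 in DKO. Of these 10, 3 were called up in DKO against WT, beside 5.61% of all genes. The part of that summed level in the levels of Fos, Junb and Ier3 was not tested. The summed level of 5 intermediate progenitor markers was 806.7 to 831.4 CPM in WT, 681.6 to 826.1 in Smarca1 KO and 674.8 to 702.2 in DKO, and its part in the lower Jun and Ier2 was not tested. Btg2 and Gadd45g of that list are also early response effectors. The summed level of 6 ventral interneuron markers was 713.5 to 815.4 CPM in WT, 789.7 to 848.8 in Smarca1 KO and 832.4 to 1022.7 in DKO. Of these 6, 2 were called up in DKO against WT, beside 5.61% of all genes. The part of that summed level in the members' levels was not tested.

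The members also differed in how steady they were between libraries of one group. Dusp1 and Jun had a within-group SD of 0.06 and 0.07 on the log2 CPM scale. The SD was smaller still in 21.7% of genes for Dusp1 and in 25.7% for Jun. For Egr1 it was 0.36, larger than in 86.5% of genes tested, and for Atf3 0.31, larger than in 82.3%. The median over all genes was 0.12. Atf3 had 18 to 45 reads a library, and the part of counting error in its spread was not tested.

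The members did not move as a block. Over the 9 libraries, as a description, the log2 level of Atf3 had a Pearson r of 0.83 with the mean of the other members tested, and that of Fos 0.59, Egr1 0.46, Junb 0.43 and Ier3 0.40. Dusp1 (-0.70), Jun (-0.50), Ier2 (-0.27) and Zfp36 (-0.24) had negative values. These points share libraries and the genotype groups. The genes whose log2 levels were most like the mean of the 9 members, by the same measure, were Mgarp (0.967), Usp31 (0.956), Pgap1 (0.956), Fam102b (0.953), Trib1 (0.948), Prag1 (0.948), Gstt1 (0.935) and Eda2r (0.929). Trib1, a pseudokinase gene that is itself on the early response list used here, was at 17.9 CPM on average in WT, 16.7 in Smarca1 KO and 20.1 in DKO. Mgarp, the gene most like the mean, was at 0.768, 0.396 and 1.26 CPM in the same order.

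A shared feature of many members lay in the messages. TATTTAT, the core of an AU-rich element, occurred in the 3′ UTR of 7 of 10 members (most-read coding transcript, GENCODE M21), against 30.2% of 14811 other genes tested. The median 3′ UTR was 794 bases in the members and 1084 in the others. Ier3 held 4 matches, Dusp1 and Zfp36 3 each, Fos 2, and Fosb, Jun and Atf3 1 each, while Junb, Egr1 and Ier2 held none. Ier3, which rose, and Jun, which fell, thus both held the element, and Ier2, which fell, did not. Windows of 30 bases are shown for the 2 called members that hold it and for Fos, with the element in capitals and written as DNA. Each is the window with most matches, the leftmost where windows tied.
Ier3: taaTATTTATgTATTTATgtatatcctcct
Fos: attTATTTATtaagatggattctcagatat
Jun: gcaTATTTATaatagcgttcgttatcacaa

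The lists of other early response genes held called genes at a share near or below that of all genes in DKO against WT (12%). Of 8 other AP-1 and related genes tested, edgeR called none in any comparison, and DESeq2 called 1, lower in DKO than in WT. The smallest p was that of Jund, which encodes the Jun protein that is usually present without a stimulus, at 191.9 ± 2.17 CPM in WT and 173.5 ± 5.43 in DKO (edgeR adjusted p = 0.0614). At an unadjusted p under 0.05 there was 1 gene of the list in each DKO comparison, lower in DKO, and 0 in Smarca1 KO against WT. Of 17 other early response transcription factor genes, 2 fell in DKO against both other groups and none rose in edgeR's test. Of all genes, edgeR called 12% against WT and 4.39% against Smarca1 KO. DESeq2 called 2 of the 17 up and 2 down in DKO against WT. Bhlhe40, a bHLH repressor, was at 14.3 ± 0.871 CPM in WT, 12.3 ± 0.972 in Smarca1 KO and 8.60 ± 0.636 in DKO, with log2 fold changes in DKO of -0.73 against WT (edgeR adjusted p = 0.00324) and -0.52 against Smarca1 KO (edgeR adjusted p = 0.0175). Crem, a CREB relative with repressor forms, was at 6.87 ± 0.709, 7.87 ± 1.1 and 4.92 ± 0.176 CPM in the same order, with log2 fold changes in DKO of -0.48 against WT (edgeR adjusted p = 0.0462) and -0.67 against Smarca1 KO (edgeR adjusted p = 0.0228).

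Among 33 other early response effectors and feedback inhibitors, 1 rose and 2 fell in DKO against WT. Of all genes, 12% were called (5.61% up and 6.35% down). Dusp4, a MAP kinase phosphatase like Dusp1, rose from 110.0 ± 6.18 to 161.0 ± 9.75 CPM (log2 fold change 0.55, edgeR adjusted p = 0.00429). Dusp14, another phosphatase of the family, fell from 13.4 ± 0.766 to 7.53 ± 1.5 CPM (-0.82, edgeR adjusted p = 0.00777), and it also fell against Smarca1 KO (-0.89, edgeR adjusted p = 0.00754). It was the only gene of the 33 called against Smarca1 KO, beside 4.39% of all genes. Ier5l fell from 31.3 ± 1.63 to 25 ± 2.95 CPM (edgeR adjusted p = 0.042). The 3 phosphatase genes thus differed, with Dusp1 at 34.6 ± 0.88 in WT and 33.0 ± 1.54 in DKO.

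Of 30 upstream factors, 2 rose and 1 fell in DKO against WT, beside 12% of all genes called. Mef2a (log2 fold change 0.21, edgeR adjusted p = 0.0498) and the JNK gene Mapk10 (0.36, edgeR adjusted p = 0.0376) rose. The ERK-dependent kinase gene Rps6ka3 fell (-0.15, edgeR adjusted p = 0.0338). Mef2d alone rose against Smarca1 KO (0.27, edgeR adjusted p = 0.03), beside 4.39% of all genes called. In Smarca1 KO against WT edgeR called 0 of the transcription factors, effectors and upstream factors. At an unadjusted p under 0.05 that comparison gave 0 transcription factors, 5 effectors (2 higher) and 6 upstream factors (3 higher), beside 18.9% of all genes. DESeq2 called 0, 2 and 1 of these lists.

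Other stress responses were taken beside these lists. Of 17 heat shock and tissue-handling genes, 3 rose and 1 fell in DKO against WT, beside 12% of all genes called (5.61% up and 6.35% down). Mt2, a metal-binding metallothionein, rose from 4.55 ± 0.537 to 14.4 ± 0.674 CPM (edgeR adjusted p = 0.00345), Mt1 rose from 7.49 ± 0.855 to 11.7 ± 0.896 (edgeR adjusted p = 0.0141), and the chaperone gene Hspa1a rose from 0.622 ± 0.239 to 2.21 ± 0.432 (edgeR adjusted p = 0.0079). Hspa1a and Hspa1b are near-identical copies whose reads cannot be divided with certainty. Hsp90ab1 fell by 0.15 on the log2 scale (edgeR adjusted p = 0.03). Hspa1a, Hspa1b and Mt2 rose in DKO against Smarca1 KO (edgeR adjusted p = 0.0339, 0.0332 and 0.0405), beside 4.39% of all genes called. In Smarca1 KO against WT edgeR called 0 of the 17, against 0.336% of all genes. There 4 had an unadjusted p under 0.05, beside 18.9% of all genes, and DESeq2 called 2.

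Of 15 ATF4 and p53 targets, 4 rose and 1 fell in DKO against WT, beside 12% of all genes called (5.61% up and 6.35% down). Their median log2 fold change was 0.28, against 0.01 over all genes. Sesn2 rose from 9.80 ± 0.534 to 16.9 ± 1.35 CPM (edgeR adjusted p = 0.0119), and Cdkn1a, the cell cycle inhibitor p21, rose from 14.2 ± 0.811 to 21.5 ± 0.0774 (edgeR adjusted p = 0.014). Ccng1 (log2 fold change 0.41, edgeR adjusted p = 0.0149) and the apoptosis gene Bbc3 (0.68, edgeR adjusted p = 0.0194) also rose. Ddit4 fell by 0.22 on the log2 scale (edgeR adjusted p = 0.0237). The other 10 were not called and lay on both sides of 0. Ddit3, Trib3, Chac1, Ppp1r15a and Phlda3 had positive log2 fold changes. Atf4, Asns, Mdm2, Trp53inp1 and Zmat3 had negative ones. Sesn2, Cdkn1a and Ccng1 rose and Ddit4 fell against Smarca1 KO as well, beside 4.39% of all genes called. In Smarca1 KO against WT edgeR and DESeq2 called 0 of the 15, with 2 at an unadjusted p under 0.05, beside 18.9% of all genes.

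**Figure D5:**
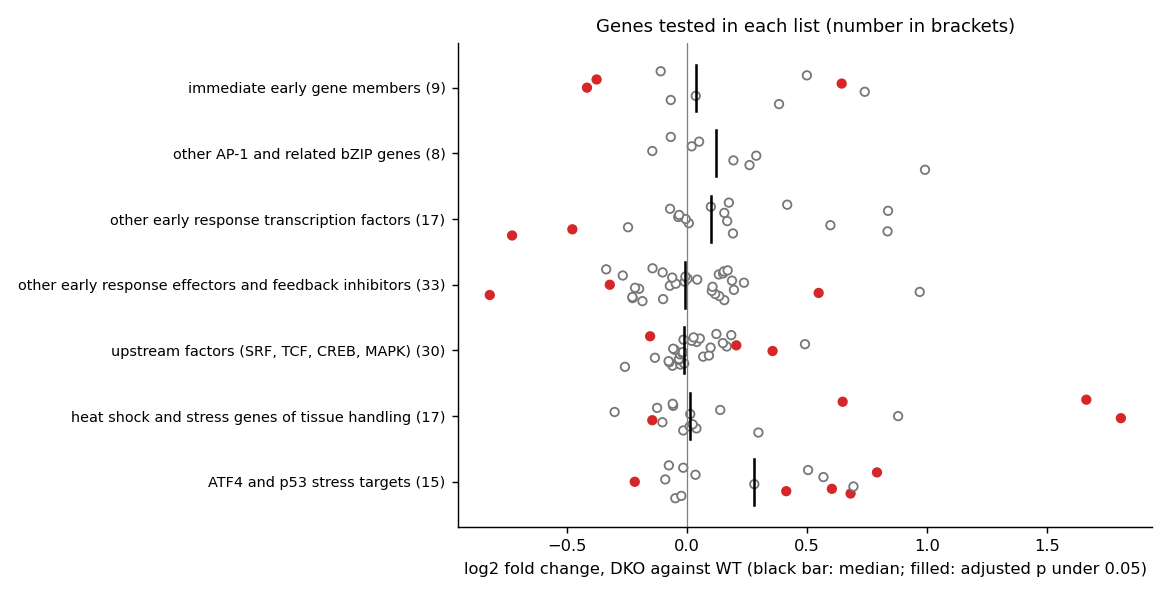
Log2 fold change in DKO against WT (x axis) of each gene tested in the 7 lists (y axis, number of genes in brackets). Points are genes, filled for an adjusted p under 0.05, and the black bar is the list's median. The immediate early members have filled points on both sides of 0, while 4 of the 5 filled points of the ATF4 and p53 list lie above it.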

How the data were processed

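RNA was measured in 9 stranded mRNA libraries of embryonic cortex (Trizol extraction, column clean-up with DNase), per the labels' protocols. The authors deposited 1 Salmon 1.4.0 table per library, with mm10 and DESeq2 also named, per the submitters' processing notes. Each deposited table held estimated counts, TPM and effective lengths per transcript, per the file headers. For its index, annotation and strand setting, nothing is given in the sources used here.

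Of 116546 transcripts, 115977 matched GENCODE M21 (GRCm38). The other 569 held 0.104% to 0.116% of reads and were left out. Estimated counts were summed per gene and rounded to whole numbers. edgeR 4.0.16 (limma 3.58.1, R 4.3.3) fitted all 9 libraries with group means (TMM, factors 0.991 to 1.015, filterByExpr, quasi-likelihood test, Benjamini-Hochberg over 15773 genes). The common biological coefficient of variation was 10.2%. A standard error is the log2 fold change divided by the square root of F. The deposited TPM were used for levels between genes, and effective lengths for offsets in an alternative. The code was tested on simulated data.

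The members and lists were chosen with earlier results of these data known. Named besides the members are, per list and comparison, up to 4 called genes with the smallest p, or, for a list with none called in any comparison, the gene with the smallest p in any of them, and the 8 genes most correlated with the members' mean. The uncalled ATF4 and p53 targets are also named, by sign. Alternatives were no filter, RLE scaling, DESeq2 1.42.0, only the groups compared, a replicate block, coding transcripts only, length offsets, a Y-linked covariate and leaving out each library. Leaving out the 2 libraries highest in meningeal markers was added after seeing the data.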

Additional observations from a re-analysis of the deposited data

How the results depend on the processing

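No called log2 fold change changed sign under the alternatives run, but 7 that missed the test did. With the Y-linked covariate, Zfp36 became 0.29 in DKO against Smarca1 KO and 0.46 in DKO against WT, Ier2 became 0.10 in DKO against Smarca1 KO, and Dusp1 was just under 0 in Smarca1 KO against WT (-0.000). Without the 2 libraries high in meningeal markers, Zfp36 became -0.10 in Smarca1 KO against WT. Without 1 library, the log2 fold change ran from -0.145 to 0.051 for Ier2 in DKO against Smarca1 KO and from -0.068 to 0.211 for Egr1 in DKO against WT. In Smarca1 KO against WT it ran from -0.037 to 0.175 for Junb, -0.019 to 0.052 for Dusp1 and -0.102 to 0.242 for Zfp36. The 692 genes called between DKO and Smarca1 KO became 181 with only those groups fitted, 461 with coding transcripts only, 389 with length offsets, 11 with the Y-linked covariate, 1183 with DESeq2, 398 without the 2 libraries high in meningeal markers, and 286 to 795 without 1 library. The 1887 between DKO and WT became 3444, 6 and 2877 with only those groups, the Y-linked covariate and DESeq2, and 450 to 3178 without 1 library (450 to 541 without a WT library, 715 and 543 without DKO replicate 2 or 3, 3178 without Smarca1 KO replicate 3). The 53 between Smarca1 KO and WT became 90 without a filter, 25 with coding transcripts only, 727 with DESeq2, 607 without the 2 libraries and 14 to 72 without 1. The number of members called between DKO and WT, 3 as reported, was 1 with length offsets, 0 with the Y-linked covariate and 1 to 4 without 1 library, with Junb added in the fits with 4. Between Smarca1 KO and WT, DESeq2 called 2 members and leaving out 1 library 0 to 1. Replicate numbers are shared across groups, but same-numbered libraries did not deviate together in every pair (residual correlations -0.06 to 0.35, not each library closest to its own number). With a replicate block, 529, 1745 and 29 genes were called in these comparisons, and 2 members between DKO and WT, Jun and Junb. The calls of Ier2 (adjusted p = 0.0509) and Ier3 (0.0526) missed there, and with length offsets (0.0544 and 0.0669). Ier3 also missed without a filter (0.0631). The cause was not tested. Depth limits Fos, Fosb, Atf3 and Ier3 most, at 0 to 110 reads a library.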
